A study of Mus musculus with 6 samples.

Results

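Accessible regions assigned to small RNA genes were examined in muscle stem cells (MuSCs) that lack Taf4a, a subunit of the general transcription factor TFIID. Chromatin accessibility had been measured by ATAC-seq, in which a transposase cuts open DNA and reads pile up into peaks. Members were all peaks whose annotated gene carries the biotype miRNA, snRNA, snoRNA, misc_RNA, rRNA or scaRNA, which gave 2052 of 75412 peaks (2.72%) and 1277 genes. They comprised 852 miRNA, 472 snRNA, 340 snoRNA, 239 misc_RNA, 141 rRNA and 8 scaRNA peaks.

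Libraries came from 6 samples, 3 from control mice (WT) and 3 from Taf4a sKO mice (ko-Taf4a), each a biological replicate of freshly isolated C57BL/6 MuSCs. In Taf4a sKO mice both Taf4a alleles were floxed at exons 11 and 12 and a tamoxifen-inducible Cre was driven by Pax7, so deletion was directed to Pax7-expressing cells of adult animals. Controls carried the floxed alleles, with or without the Cre, according to the study's methods. MuSCs had been sorted as integrin-a7+ (or GFP+) and SCA1-, CD45- and CD31- cells. Values are normalised read counts per peak, and their sum over all peaks ran from 35226223 to 44311913 per library. At the targeted gene, the peak over exon 12 (chr2:179922849-179923263, mm10) held 65, 78 and 137 in controls and 44, 22 and 25 in Taf4a sKO MuSCs, a log2 change of -1.58 ± 0.30 (SE; limma adjusted p = 0.00034), and the peak over exon 1 held 2305, 1998 and 2375 against 2095, 2124 and 2104. A Taf4 peak over exon 7, outside the floxed exons, was also lower with 253, 249 and 302 against 140, 145 and 165 (log2 change -0.83 ± 0.15, adjusted p = 0.00014), as was a peak in no exon (adjusted p = 0.027). All 6 MuSC marker genes carried peaks, led by Pax7, whereas the blood markers Ptprc and Itgam carried none and Cd52 averaged 44.3 in controls. Kdr, the most accessible of the 3 endothelial markers, averaged 123. In a bulk library, a site open in fewer cells and a site less open in every cell cannot be told apart.

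MicroRNAs are cut from hairpins in longer RNA polymerase II transcripts, which are either their own or those of a host gene, and they repress messenger RNAs that pair with the seed, bases 2 to 8 of the mature strand. Spliceosomal snRNAs take part in intron removal, snoRNAs guide the modification of ribosomal RNA and mostly sit in introns of host genes, and Y RNA, 7SK and 5S rRNA genes are read by RNA polymerase III. In MuSCs, miR-206 and miR-133b are known as muscle microRNAs, and let-7 and miR-125 are widely studied families in differentiation.

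Of 509 microRNA genes with a peak, 265 had a mature sequence in RefSeq (GRCm38.p6). The sequences below belong to loci whose accessibility is described further on, written 5′ to 3′ with the seed in capitals. The let-7 members share the seed GAGGUAG:
let-7b-5p: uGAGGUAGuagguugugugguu
let-7c-5p: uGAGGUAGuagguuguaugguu
let-7d-5p: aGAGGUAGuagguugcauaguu
let-7i-5p: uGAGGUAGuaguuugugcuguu
The miR-125 members share CCCUGAG, and miR-125b-1 lies in a cluster with miR-100, which has another seed:
miR-125a-5p: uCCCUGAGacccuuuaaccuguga
miR-125b-5p: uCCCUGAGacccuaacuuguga
miR-100-5p: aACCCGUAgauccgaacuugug
MicroRNAs with gained peaks included:
miR-139-5p: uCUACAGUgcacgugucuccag
miR-1962: aGAGGCUGgcacugggacacau
miR-218-5p: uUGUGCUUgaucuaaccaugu
miR-26a-5p: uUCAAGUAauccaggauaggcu
MicroRNAs with lost peaks included miR-711, miR-190a, miR-365 and miR-761, shown with miR-214-3p, which shares the miR-761 seed and had no lost peak:
miR-711: gGGACCCGgggagagauguaag
miR-190a-5p: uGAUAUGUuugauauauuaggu
miR-365-3p: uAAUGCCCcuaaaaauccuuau
miR-761: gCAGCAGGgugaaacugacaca
miR-214-3p: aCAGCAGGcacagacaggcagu

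Peaks at small RNA genes moved in both directions in Taf4a sKO MuSCs, with more of them higher than lower. Of the 2051 members tested, 615 were higher (30.0%) and 333 lower (16.2%) by limma at an adjusted p below 0.05, beside 28.0% and 13.9% of all 75384 peaks tested. By the size thresholds, a log2 ratio of group means above 1 or below -1, 162 members were gained (7.90%) and 129 lost (6.29%), beside 7.03% and 5.36% of all peaks. This balance turned with TMM factors, which gave 118 gained and 153 lost members (5.75% and 7.46%, beside 5.21% and 6.51% of all peaks), and with median-of-ratios size factors (117 and 153). The median log2 change was 0.11, the same as the 0.11 over all peaks. A single member, a Mir6384 peak with a mean of exactly 10, was not tested. How many members went up or down changed with the normalisation between libraries. TMM factors moved the median of all peaks from 0.11 to -0.01 on the log2 scale, and the share of called members that were higher was 64.9% with the deposited scaling, 54.5% with TMM factors and 51.4% with quantile normalization. Over all peaks this share moved in the same way, from 66.8% to 53.2% and 49.8%.

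By biotype, 257 of 851 miRNA peaks were higher (30.2%) and 136 lower (16.0%), with 72 gained and 46 lost. Among 472 snRNA peaks, 145 were higher (30.7%) and 67 lower (14.2%). The 340 snoRNA peaks had 94 higher (27.6%) and 69 lower (20.3%), and 31 lost against 19 gained. The lost peaks outnumbered the gained in snoRNAs also with TMM factors (38 against 14) and with quantile normalization (35 against 19). With TMM factors this held for miRNA, snRNA and misc_RNA peaks too. Without Control replicate 3 the order in snoRNAs turned, with 35 gained and 30 lost (10.3% and 8.82%, beside 9.76% and 4.85% of all peaks). The misc_RNA class, which holds Y RNA and 7SK copies, had 79 of 239 higher and 36 lower, and the rRNA class 40 of 141 higher and 23 lower. Of the 8 scaRNA peaks, which guide modification of spliceosomal RNAs, 2 were lower and 0 higher (also 0 by limma at an unadjusted p below 0.05). Differences between classes were not tested. Of the peaks of protein-coding genes, 17.8% were higher and 9.68% lower, and of the peaks with no gene within 10000 bp, 32.9% and 16.0%.

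**Figure D1:**
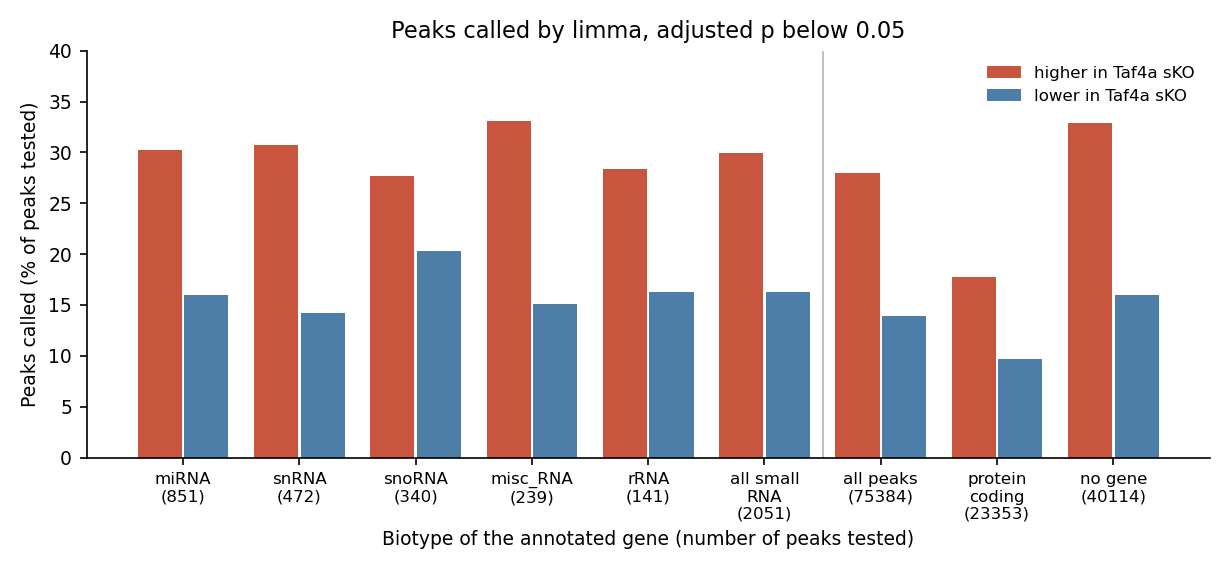
Percentage of tested peaks called higher (red) or lower (blue) in Taf4a sKO MuSCs by limma at an adjusted p below 0.05, by biotype of the annotated gene; the number of peaks tested is in parentheses, and reference groups stand right of the grey line. The miRNA bars reach 30.2% and 16.0%, close to the 28.0% and 13.9% of all peaks, whereas protein-coding genes reach 17.8% and 9.68%.

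Most members lay away from the small RNA itself. The median distance from peak centre to gene start was 4829 bp, against 821 bp for peaks of protein-coding genes, and 242 members (11.8%) were within 1000 bp. Only 108 members (5.26%) overlapped the annotated small RNA, 44 of them microRNAs, 30 snRNAs and 17 snoRNAs. A further property was location in another gene: 1148 members (55.9%) lay in the body of a protein-coding gene and 132 (6.43%) within 1000 bp of a protein-coding start. Such a start is that of any annotated transcript of a protein-coding gene, so it can lie inside the gene. Members overlapping their small RNA had a median control value of 400, against 147 over all members, and 35 of the 108 were called (32.4%), 19 higher and 16 lower. In the other distance classes 45.5% to 48.4% were called. Over all peaks 41.9% were called, and of the peaks of protein-coding genes 27.5%. These shares were not tested against each other. Members gained and lost lay in protein-coding gene bodies at similar rates, 50.6% and 52.7%.

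Among microRNAs with Mir names, 41 peaks of 34 genes were gained and 20 peaks of 16 genes lost; the remaining 31 gained and 26 lost microRNA peaks belonged to predicted genes with Gm names. Mir139 (ENSMUSG00000065446), a microRNA in an intron of the phosphodiesterase gene Pde2a, had 4 peaks, all higher and 3 of them gained. Its peak 789 bp from the hairpin start (chr7:101474274-101474899) held 153, 165 and 175 in controls and 519, 480 and 671 in Taf4a sKO MuSCs. The genotypes did not overlap, and the log2 change was 1.74 ± 0.15 (SE; adjusted p = 8.3e-09). The peak at chr7:101483396-101484314 held 224, 235 and 234 against 554, 533 and 634, and that at chr7:101472741-101473383 held 85, 88 and 113 against 189, 230 and 222. All 3 gained Mir139 peaks were thus separated by genotype. Many peaks named in this report were chosen for large or non-overlapping changes, so separation at them adds no independent support.

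The microRNA peak with the largest increase belonged to Mir1962, inside the phosphatase gene Ptpre (chr7:135572011-135572516, 6102 bp from the gene start). It held 67, 46 and 68 in controls and 341, 247 and 305 in Taf4a sKO MuSCs, a log2 change of 2.29 ± 0.19 (adjusted p = 4.9e-09). Every Taf4a sKO library was above every control library. Mir218-2 lies in an intron of Slit3, which encodes a secreted guidance protein, and its gained peak (chr11:35625696-35626816) held 143, 148 and 177 against 433, 412 and 459. Mir26a-1 in Ctdspl had a gained peak (chr9:119037112-119038098) with 433, 378 and 628 against 944, 1041 and 965. In both, the lowest Taf4a sKO library exceeded the highest control library, with log2 changes of 1.48 ± 0.14 and 1.07 ± 0.15. Mir28a in Lpp, which encodes an adhesion protein, held 19, 26 and 36 against 54, 108 and 67, also without overlap (log2 change 1.45 ± 0.29, adjusted p = 0.00038). The snoRNA Gm22672 lies in the same host, and its peak held 57, 66 and 90 against 193, 184 and 185. The 5 peaks of Mir6896, in Dst, were all higher and 3 gained, the strongest of these being the peak at chr1:34122984-34123733 with 950, 865 and 1175 against 2054, 1976 and 1977. That peak was 1790 bp from a Dst transcript start and 6000 bp from Mir6896. Another gained peak (chr1:34121140-34121988) was centred 4 bp from a Dst transcript start and 4205 bp from Mir6896.

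The deepest loss among microRNA peaks was at Mir711, inside Col7a1, the gene of a skin anchoring collagen (chr9:108963677-108963862, 6152 bp from the gene start). It held 58, 71 and 47 in controls and 6, 7 and 5 in Taf4a sKO MuSCs, a log2 change of -3.08 ± 0.35 (adjusted p = 4.1e-07). The genotypes were far apart, although the level was low in both. Mir190a, in an intron of the talin gene Tln2, had a lost peak 376 bp from its start (chr9:67237003-67237200) with 36, 40 and 47 against 8, 10 and 8, a log2 change of -2.12 ± 0.35 (adjusted p = 3.9e-05). More signal was lost at Mir7674 in the nucleoporin gene Nup214. Its peak at chr2:32045179-32046108 held 429, 433 and 495 against 128, 137 and 103, and that at chr2:32056524-32056978 held 139, 123 and 123 against 39, 26 and 40. Both Mir7674 peaks fell without overlap, with log2 changes of -1.88 and -1.87. All 3 peaks of Mir7681 were lost as well, with log2 changes from -1.63 to -1.46. Mir365-1, outside any protein-coding gene, had a lost peak 1976 bp away (chr16:13455540-13456092) with 378, 434 and 559 against 236, 189 and 169, and Mir331, in the adhesion gene Vezt, a lost peak with 117, 119 and 138 against 39, 41 and 31. Among predicted microRNA genes the deepest loss was at Gm25991, with 218, 197 and 195 against 24, 30 and 37. Mir365-2, the other copy with the miR-365 seed, had a peak that was called higher, with a log2 change of 0.45. The peaks near Mir7676-1 in Csf2rb2 varied within genotype: the first held 86, 109 and 17 against 10, 12 and 10 (adjusted p = 0.0086), and without Taf4a sKO replicate 1, 2 or 3 its adjusted p was 0.12, 0.09 and 0.11, with log2 changes from -2.34 to -2.22 in place of -2.26.

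**Figure D2:**
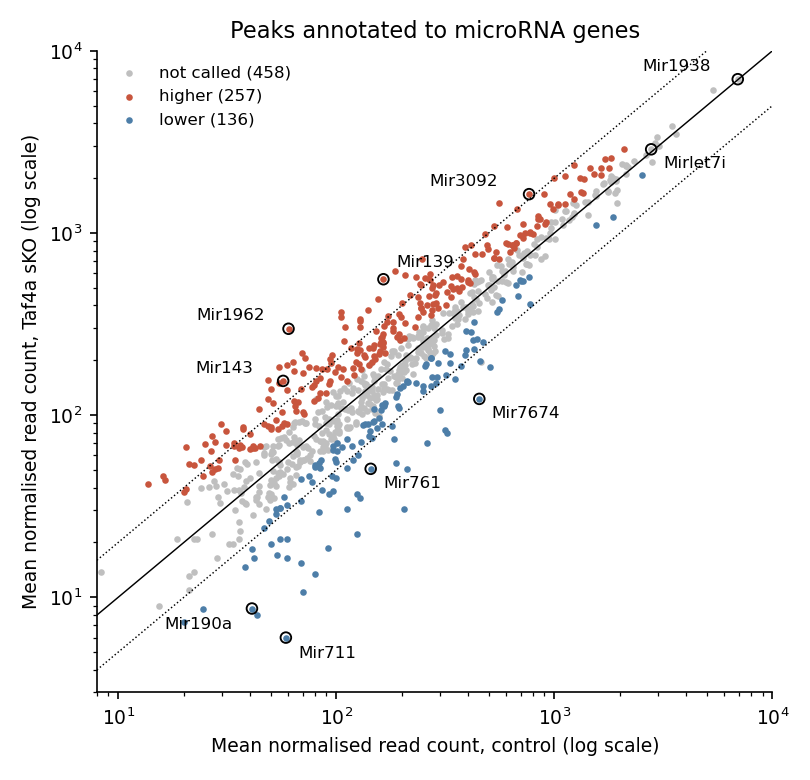
Mean normalised read count of each tested microRNA peak in 3 control (x) and 3 Taf4a sKO (y) libraries, both axes logarithmic; red and blue points were called higher and lower, rings mark labelled peaks, the solid line is equality and the dotted lines a ratio of 2. The 257 higher and 136 lower peaks span weak and strong peaks, while Mir1938, the strongest peak, and Mirlet7i lie on the line.

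**Figure D3:**
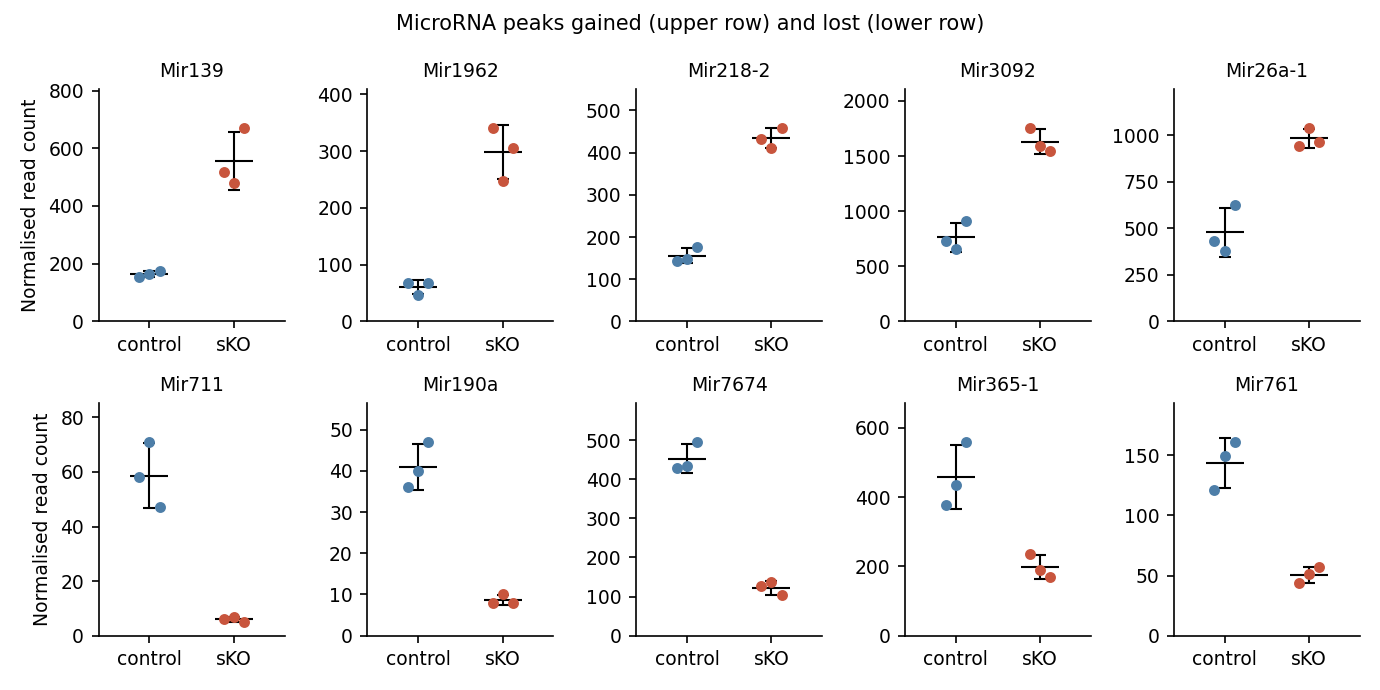
Normalised read count of 10 microRNA peaks in each library (points), with mean and SD over 3 libraries per genotype (bars); each panel has its own linear axis from 0. Gained peaks are in the upper row and lost peaks in the lower row, and in each panel the genotypes do not overlap, as for Mir139 with 153 to 175 in controls and 480 to 671 in Taf4a sKO MuSCs. The panels were picked from peaks past the thresholds, so the separation follows in part from the choice.

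Among 44 microRNA peaks that overlap the annotated gene, 4 were gained (9.09%) and 3 lost (6.82%), near the 7.03% and 5.36% of all peaks. The gained peak at Mir3092, in an intron of Fndc3b (chr3:27584482-27585555), held 725, 658 and 912 in controls and 1757, 1590 and 1548 in Taf4a sKO MuSCs, a log2 change of 1.10 ± 0.12 (adjusted p = 2.3e-07). The hairpin it covers is shown in capitals within the minus strand of chr3:27584880-27585015 (GRCm38):
Mir3092: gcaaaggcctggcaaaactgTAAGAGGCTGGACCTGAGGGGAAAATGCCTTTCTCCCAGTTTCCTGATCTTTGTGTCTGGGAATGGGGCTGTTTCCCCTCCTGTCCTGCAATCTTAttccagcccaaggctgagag
Mir6390 and Mir6403 also had gained peaks over the hairpin, with 408, 455 and 809 against 1374, 1498 and 1532 for Mir6390. The lost peak over Mir761 (chr4:109017475-109017795) held 121, 149 and 161 against 44, 51 and 57 (log2 change -1.48 ± 0.20, adjusted p = 2.9e-06). It was centred in an exon of the protease gene Nrd1, 860 bp from an annotated transcript start of that gene. Mir214, with the same seed as Mir761, had a peak 2103 bp away that was called higher, with 192, 200 and 197 against 283, 248 and 248. That call was lost with TMM factors (adjusted p = 0.065) and in 5 of 6 fits with a library left out, with adjusted p from 0.053 to 0.13; it held without Control replicate 3. Mir6352 in Epha4 had a lost peak over part of its hairpin with 75, 63 and 69 against 29, 36 and 36.

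Results at let-7 and miR-125 loci differed from locus to locus. In the chromosome 9 cluster of miR-100, let-7a-2 and miR-125b-1, 4 of 5 peaks were higher, where 28.0% of all peaks were. The peak 329 bp from Mir100 (chr9:41531514-41531994) held 75, 108 and 99 in controls and 222, 186 and 170 in Taf4a sKO MuSCs, and was gained (log2 change 1.04 ± 0.18, adjusted p = 7.1e-05). An upstream Mir100 peak held 267, 275 and 292 against 530, 508 and 512. Both Mir100 peaks were separated by genotype. The Mir125b-1 peaks held 131, 161 and 197 against 223, 267 and 221 and, farther downstream, 304, 247 and 281 against 397, 392 and 428. The first of these calls was lost without Control replicate 1 (adjusted p = 0.071) or Taf4a sKO replicate 2 (adjusted p = 0.055). The let-7a-2 peak, between the Mir100 and Mir125b-1 peaks, held 389, 404 and 544 against 455, 497 and 493 and was not called (adjusted p = 0.50), but it was called higher without Control replicate 3 (adjusted p = 0.032). At the paralogous cluster on chromosome 16, the Mir125b-2 peak held 1637, 1411 and 1855 against 2312, 2227 and 2249 (log2 change 0.48 ± 0.11, adjusted p = 0.001). On chromosome 17, the Mir125a peak, 135 bp from the start of Spaca6, held 5253, 4737 and 5956 against 6839, 5572 and 5751, and was not called (adjusted p = 0.17), but it was called higher without Control replicate 3 (adjusted p = 0.015) and with quantile normalization (adjusted p = 0.01). These clusters were chosen for description after their values were known.

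At the let-7c-2 and let-7b locus on chromosome 15, inside the noncoding gene Lncppara, 3 of 4 peaks near let-7c-2 were higher (28.0% of all peaks) and 0 of 3 near let-7b were called by limma (also 0 at an unadjusted p below 0.05). The Mirlet7c-2 peak 531 bp from the hairpin start (chr15:85705921-85706223) held 253, 164 and 181 against 405, 488 and 350, and was gained (log2 change 1.06 ± 0.17, adjusted p = 3.9e-05). The widest of the Mirlet7c-2 peaks held 596, 607 and 798 against 941, 834 and 849, a call that was lost without Control replicate 1 (adjusted p = 0.066), Control replicate 2 (0.069) or Taf4a sKO replicate 1 (0.061). A Mirlet7b peak 5898 bp away passed the threshold for loss with 335, 537 and 515 against 279, 52 and 257, but limma did not call it (adjusted p = 0.21). The low value of Taf4a sKO replicate 2 set that spread, and without this library the log2 change was -0.75 (adjusted p = 0.0014). The farthest Mirlet7b peak was lower with TMM factors (adjusted p = 0.03). Mirlet7i, with a peak over its own hairpin, held 2715, 2499 and 3119 against 2966, 2794 and 2870 (log2 change 0.06 ± 0.10), and neither Mirlet7d peak was called, also at an unadjusted p below 0.05.

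**Figure D4:**
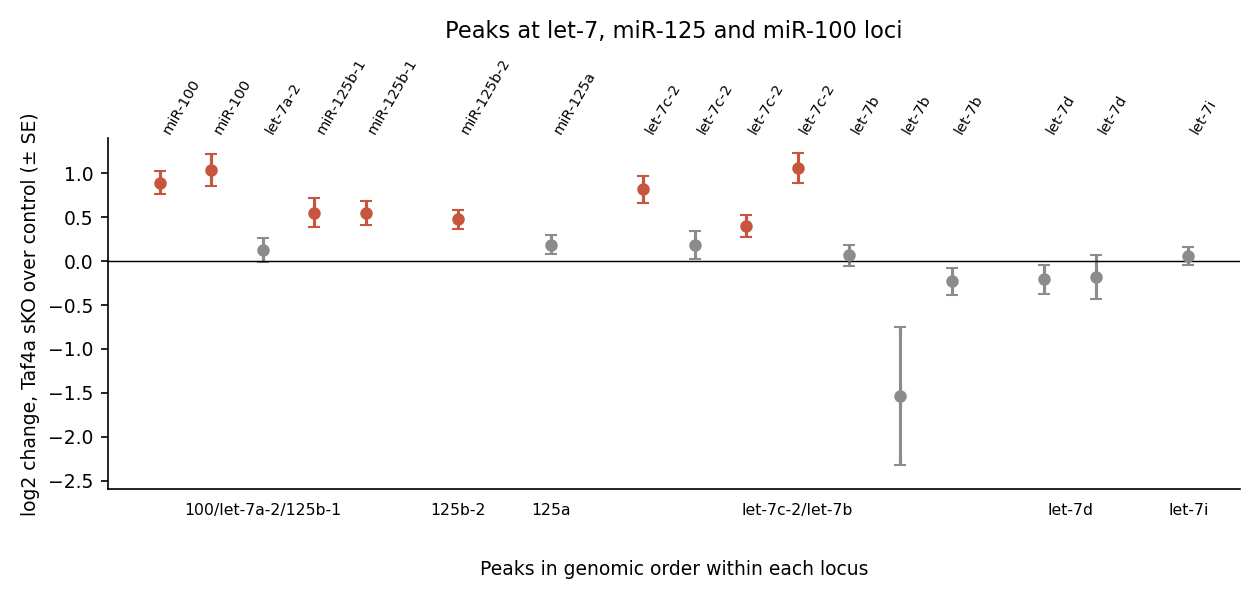
Log2 change (Taf4a sKO over control) with SE from limma for each peak at let-7, miR-125 and miR-100 loci, in genomic order within each locus; red points were called higher and grey points were not called. Mir100 and Mirlet7c-2 peaks reach 1.04 and 1.06, Mirlet7i sits at 0.06, and the wide bar is the Mirlet7b peak with 1 outlying library.

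Among microRNAs listed for their known roles, 30 of 147 listed genes had a peak. They carried 47 peaks, of which 16 were higher and 3 lower, where 28.0% and 13.9% of all peaks were called. Of 12 muscle microRNAs, Mir206, Mir133b and Mir499 had 6 peaks. The Mir206 peak nearest the gene held 1141, 1027 and 1228 in controls and 1400, 1251 and 1306 in Taf4a sKO MuSCs (adjusted p = 0.10, and 0.0083 without Control replicate 3), and the Mir133b peak 1027, 1019 and 1221 against 1191, 1041 and 1089 (adjusted p = 0.87). The farther Mir206 peak was called higher with 500, 645 and 728 against 822, 714 and 809 (adjusted p = 0.044), a call lost with TMM factors (adjusted p = 0.098) and without Control replicate 1 (0.35), Control replicate 2 (0.083), or Taf4a sKO replicates 1 or 3 (0.13 each). At Mir499, in the myosin gene Myh7b, 1 of 3 peaks was lower, with 90, 87 and 79 against 50, 66 and 54, and this call too was lost without any of 4 single libraries, with adjusted p from 0.077 to 0.091. Signal at the muscle microRNAs that had peaks was therefore either not called or close to the threshold. Summed over 6 peaks of 3 myofibre marker genes, led by Acta1, values were 1650, 1636 and 2004 in controls and 1585, 1408 and 1337 in Taf4a sKO libraries, with 2 peaks lower. The 24 peaks of the 6 MuSC markers summed to 22466, 18276 and 22346 against 24177, 22028 and 22822, with 9 higher and 3 lower. The mean at Pax7, their most accessible gene, was 3797 against 3011. The part of either cell type in these results was not tested.

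Of 33 microRNAs listed for MuSC quiescence and activation, 8 had 12 peaks, with 5 higher and 0 lower by limma (also 0 lower at an unadjusted p below 0.05), a list too short to set against the 28.0% and 13.9% of all peaks. Besides both miR-125b loci they included Mir23b, whose stronger peak held 325, 280 and 463 against 566, 606 and 559 (log2 change 0.73 ± 0.16), and Mir101a, with 179, 161 and 163 against 204, 238 and 215 (log2 change 0.38 ± 0.15). The Mir101a call was lost with TMM factors (adjusted p = 0.12) and in 5 of 6 fits with a library left out, with adjusted p from 0.056 to 0.18. Mir29a had 2 peaks that were not called (adjusted p = 0.12 and 0.15). With TMM factors its peak at chr6:31052942-31053640 was lower, with an adjusted p of 0.025, and so was the other, at the threshold with an adjusted p of 0.05 (0.049 with median-of-ratios size factors). The proliferation microRNA Mir21a, in Vmp1, had a peak of 1170, 1088 and 1447 against 1546, 1561 and 1526 that was called higher (log2 change 0.33 ± 0.11) and lost the call in 5 of 6 fits with a library left out, with adjusted p from 0.053 to 0.086. Of 55 microRNAs of the imprinted Dlk1-Dio3 region, 4 had a peak. Mir493 was gained with 60, 88 and 132 against 167, 214 and 226, Mir337 was higher with 26, 44 and 38 against 79, 62 and 65, Mir667 was lost with 94, 103 and 90 against 56, 33 and 50, and Mir3072 was not called with 1234, 1187 and 1722 against 1540, 1425 and 1467 (adjusted p = 0.0048 without Control replicate 3). Peaks of this imprinted region thus went both ways, Mir667 being the lower of them.

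Other lists covered cells that a sort could hold besides MuSCs. None of the 6 blood or 2 endothelial microRNAs had a peak. Of 6 microRNAs listed for fibroblasts and smooth muscle, 5 had 7 peaks, 3 of them higher beside 28.0% of all peaks, and their top peak by value was at Mir199a-1 with 809, 697 and 1061 in controls and 1367, 1118 and 1083 in Taf4a sKO MuSCs. That call was lost without Control replicate 2 (adjusted p = 0.066). Mir143 was gained, with 57, 71 and 43 against 165, 137 and 160 (log2 change 1.44 ± 0.20, adjusted p = 5.5e-06), while the peak over the neighbouring Mir145a held 652, 558 and 638 against 633, 693 and 701. Summed over 8 peaks of the fibroblast genes, led by Pdgfra, values were 2315, 2136 and 2419 in controls and 2840, 2683 and 2667 in Taf4a sKO libraries. Ly6a, which encodes the SCA1 of the sort, had no peak. The part of other cells in the Mir143 result was not tested. Of 8 neural and Schwann cell microRNAs, 4 had 5 peaks, with 1 higher and 1 lower beside 28.0% and 13.9% of all peaks. Mir9-3 was higher with 133, 123 and 112 against 207, 182 and 196, and Mir124a-3 was lower with 677, 684 and 735 against 580, 580 and 504, a call lost without Control replicate 1 (adjusted p = 0.053) or Taf4a sKO replicate 3 (0.19).

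Several loci carried more than 1 called peak. Of 1277 loci, 501 had several peaks, up to 7 per locus. In 100 loci 2 or more peaks were higher and none lower, in 32 loci 2 or more were lower and none higher, and 41 loci had calls in both directions. Among the 311 loci with exactly 2 peaks, both were higher in 14.5% and both lower in 7.07%, beside 8.31% and 3.64% of all 5306 genes with 2 peaks. Of the 131 loci with 3 peaks, 34 had several higher and 7 several lower peaks with no call the other way, as had 486 and 139 of all 2234 such genes. These shares were not tested. At least 2 peaks were gained in 19 loci and at least 2 lost in 14 (2.57% and 3.86% of loci with 2 peaks, beside 1.23% and 1.02% of all such genes, and 3.05% and 1.53% of loci with 3 peaks, beside 3.09% and 1.30%), and 1 locus, Gm25036, held 2 gained peaks and 1 lost peak. The snRNA Gm26138 had 6 peaks, 4 higher and 2 of these gained. All 3 peaks of the 5S rRNA gene copy Gm23342 on chromosome 12 were lost, and the strongest of them (chr12:29029158-29030069) held 891, 961 and 976 against 409, 343 and 372.

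Outside the microRNAs, the largest changes occurred at predicted copies of snRNA, snoRNA, rRNA and misc_RNA genes. The snRNA Gm25601 had a gained peak (chr5:52346797-52347459) with 86, 69 and 100 in controls and 447, 371 and 334 in Taf4a sKO MuSCs (log2 change 2.17 ± 0.17). The snRNA Gm22101 lost most of a strong peak (chr10:111133061-111134032), with 799, 821 and 925 against 155, 151 and 163 (log2 change -2.43 ± 0.13). In both, the libraries of a genotype were close together. Another snRNA copy, Gm22296, fell by 3.04 on the log2 scale from 69, 92 and 74 to 10, 7 and 9. The snoRNA Gm23011, 48781 bp from the start of Tet2, fell from 136, 138 and 159 to 18, 26 and 28, whereas the snoRNA Gm22276 was gained with 263, 205 and 272 against 713, 586 and 579. Among rRNA genes, Gm27266 showed the largest increase, from 17, 12 and 17 to 122, 86 and 114 (log2 change 2.73 ± 0.26). The misc_RNA Gm27718 lies in Pvt1, the noncoding neighbour of Myc, and held 110, 105 and 102 against 322, 280 and 316. A stronger peak in Pvt1 at Gm27782 held 3036, 2876 and 3709 against 4285, 3953 and 3863 (log2 change 0.34 ± 0.11), a call lost without Control replicate 1 (adjusted p = 0.074) or Taf4a sKO replicate 1 (0.072). The misc_RNA Gm24010 fell from 515, 418 and 503 to 117, 108 and 102. The scaRNA Gm22387 was lost with 32, 32 and 51 against 8, 5 and 3. These peaks lay 753 to 8363 bp from the annotated copies, and most such genes are members of repeated families.

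The 7 U1, U3 and Y RNA genes with a peak carried 10 peaks, of which 1 was higher and 0 lower by limma (also 0 lower at an unadjusted p below 0.05), beside 28.0% and 13.9% of all peaks. The peak over Rnu1a1, a U1 snRNA gene, held 1751, 1352 and 1543 in controls and 1572, 1357 and 1267 in Taf4a sKO MuSCs (log2 change -0.14 ± 0.12, adjusted p = 0.33), and was lower with TMM factors (adjusted p = 0.04). A weaker peak 870 bp away was higher with 67, 77 and 85 against 130, 140 and 121. All 4 U3 snoRNA copies, Rnu3b1 to Rnu3b4, had a peak over the gene, and 0 were called by limma (also 0 at an unadjusted p below 0.05), with log2 changes from 0.09 to 0.22. The Y RNA genes Rny1 and Rny3 had peaks over the gene of 1271, 1138 and 1380 against 1475, 1383 and 1323 and of 536, 489 and 557 against 511, 529 and 544, neither of which was called. Without Control replicate 3, Rny1 (adjusted p = 0.041) and Rnu3b1 (0.035) were called higher. Since reads that map to several places had been removed, signal over such near-identical copies is uncertain. The strongest microRNA peak, at Mir1938 and 5 bp from the start of Ifrd1, held 6963, 6052 and 7776 against 7642, 6655 and 6642. The peak with the highest value of all 75412 was annotated to CT010467.1, an rRNA gene on chromosome 17, with 110866, 82723 and 111191 against 133543, 114252 and 102853. Its log2 change of 0.21 ± 0.12 was not called (adjusted p = 0.19). The mean of this peak was 109238, whereas peaks of genes outside the small RNA classes reached at most 15528. What gave so high a value was not tested, and it need not reflect open chromatin.

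Short sequence motifs were counted in the 300 bp around each peak centre, on both strands. The E-box CAGCTG, a form bound by myogenic factors, was present in 158 of 333 lower members (47.4%) and in 158 of 615 higher members (25.7%). Over all peaks tested it was present in 29.1%, and in 43.2% of lower and 26.2% of higher peaks. The AP-1 motif TGANTCA showed the opposite order, in 34.5% of higher and 15.9% of lower members, beside 22.0% of all peaks, 32.2% of higher and 18.9% of lower peaks. The TEAD motif GGAATG was present in 25.7% of higher and 20.7% of lower members and CCAAT, the NF-Y box, in 31.5% and 34.5%, beside 19.0% and 32.2% of all peaks. The median GC content was 49.3% for higher and 49.0% for lower members. Of the 20 lost peaks at Mir genes 13 held CAGCTG, against 7 of 41 gained peaks, beside 43.6% of lost and 23.0% of gained peaks in the whole table. The AP-1 motif was present in 6 of the 20 lost and 11 of the 41 gained Mir peaks, beside 24 of 129 lost and 55 of 162 gained members and 21.9% and 35.3% in the whole table, so these small sets did not follow the order seen there. A match describes letters in the window and says nothing of binding. Matches from lost peaks are shown here on the plus strand, with 1 E-box match of each in capitals (the Mir711 stretch holds another CAGCTG in lower case), at chr9:108963722-108963747, chr9:67237066-67237091 and chr16:13455825-13455850:
Mir711: gaaatccattCAGCTGacagctgctg
Mir190a: gtaatcaaaaCAGCTGgaagtcatca
Mir365-1: ggccagcagaCAGCTGccagccctac
Matches from gained peaks are shown with the AP-1 motif in capitals (the Mir6390 stretch also holds CAGCTG in lower case), at chr14:105615981-105616007, chr12:109582481-109582507 and chr3:95726171-95726197:
Mir6390: ttagtaaataTGACTCAaaagcagctg
Mir493: acacagccacTGAGTCAtggacttctc
Mir7014: gcttaagaacTGACTCAgggtcgctag

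**Figure D5:**
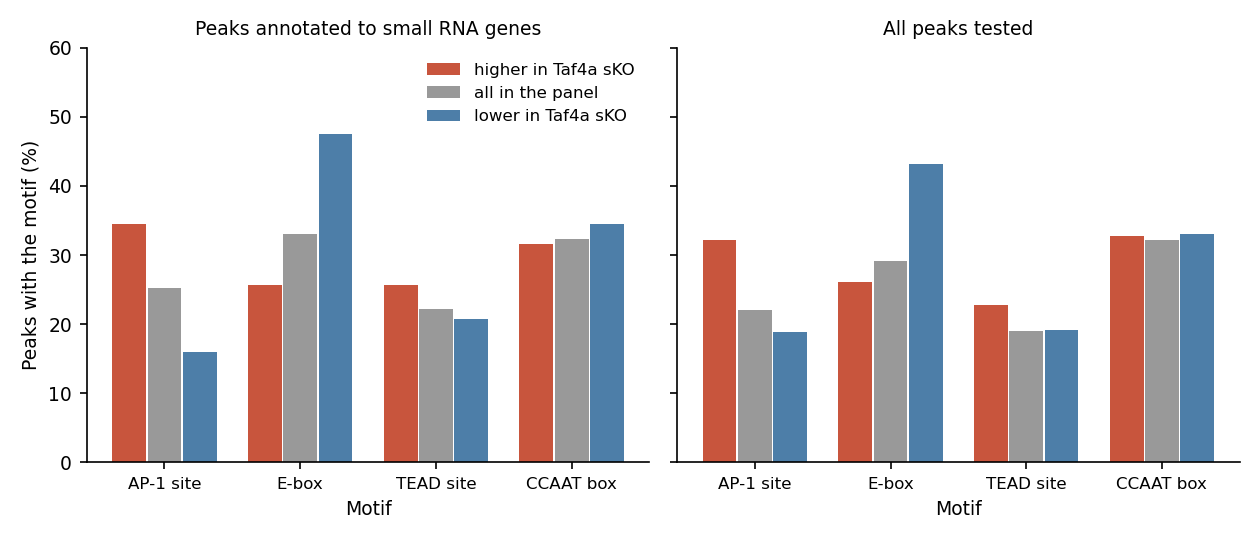
Percentage of peaks with each motif within 300 bp centred on the peak, for members (left) and all tested peaks (right), split into peaks higher in Taf4a sKO MuSCs (red), all peaks of the panel (grey) and lower peaks (blue). The E-box was present in 47.4% of lower and 25.7% of higher members, and the AP-1 motif in 15.9% and 34.5%.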

How the data were processed

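ATAC-seq libraries of 3 control and 3 Taf4a sKO replicates were analysed. According to the submitters' processing notes and the methods, the authors trimmed reads with Trimmomatic 0.39, aligned them to mm10 with STAR 2.7.11b, removed duplicates with Picard 3.1.1 and any read that was spliced, mitochondrial, ribosomal or mapped to several places, ran MACS per sample, merged the peaks, counted reads with featureCounts and assigned each peak the nearest gene start within 10000 bp. A shift for the transposase insertion is not given in the sources used here. The deposited values are a score, counts that the authors scaled for depth and rounded, so no count model was used.

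Limma 3.58.1 (R 4.3.3; trend, robust) was fitted to log2(value + 1) over 75384 peaks with a mean above 10, with Benjamini-Hochberg adjustment; it was tested on simulated data. Fold changes are on that scale, which understates changes at low values. Symbols came from GENCODE vM21 by gene ID (all 1277 genes matched). Named peaks were listed microRNAs, microRNA peaks past the thresholds, the 8 (microRNA) or 3 (other biotypes) smallest p per direction without overlap of genotypes, the 3 highest means per biotype and classical noncoding RNAs; the motifs, clusters and multi-peak loci were added later. Members and lists were chosen with earlier results of these data known. Alternatives covered filter, pseudocount, scaling, threshold, annotation and left-out replicates. The 3 libraries per genotype limit precision, and 0 per-sample columns were left unused.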

Additional observations from a re-analysis of the deposited data

How the results depend on the processing

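Deviations of same-numbered libraries correlated at 0.11, -0.12 and -0.03, and those of differently numbered libraries at -0.12 to 0.15. With 3 libraries per genotype, these values cannot decide whether the replicate numbers pair the libraries. Limma with a replicate block, given as an alternative only, called 635 members higher and 348 lower. It ended the call at Mir101a (adjusted p = 0.052). Quantile normalization gave members a median log2 change of -0.025 and put 24.6% of them (505) in the lower direction. The share of microRNA peaks called lower rose to 24.2% (206) under TMM factors, 24.2% (206) under median-of-ratios size factors and 26.2% (223) under quantile normalization, against 136 peaks with the deposited scaling, near the 22.3%, 22.5% and 25.1% of all peaks. A threshold of 1.5-fold gave 21.1% gained (433) and 13.7% lost (281), beside 19.4% and 11.5% of all peaks, and a log2 threshold of 1.5 gave 1.66% (34) and 2.68% (55), beside 1.46% and 2.27%. Quantile normalization turned 3 uncalled peaks with a log2 change just above 0 into lower calls, Mir133b (log2 change -0.16), Mir1938 (-0.049) and Rny3 (-0.23), and 10 other uncalled named peaks were then called in the direction they already had. With a library left out, 22.3% to 37.7% of members were higher, 13.1% to 15.8% lower, 7.12% to 10.9% gained and 5.90% to 6.92% lost. Over all peaks, 16024 of 75360 to 28502 of 75359 were higher, 11.4% to 13.3% lower, 6.17% to 9.76% gained and 4.85% to 5.97% lost. The median log2 change of members ran from 0.05 without Control replicate 2 to 0.19 without Control replicate 3. Of 161 named peaks that were called, 147 kept the call under every alternative in which they were tested. Many of them were named for a small p or a large change in these data, which favours keeping the call. This share therefore does not describe the members as a whole. Over all members, 615 higher calls became 458 without Control replicate 2 and 772 without Control replicate 3. Without Control replicate 3, 13 named peaks that were not called with all 6 libraries were called higher. The minimum mean, the pseudocount and the restriction to peaks near the small RNA or away from protein-coding starts kept the shares of members and of microRNA peaks called within 1.5 times. Fewer peaks were tested then: a mean above 50 left 82 lost peaks in place of 129, and peaks within 1000 bp of the small RNA gave 61 higher and 35 lower members, with a median log2 change of 0.072. Among the other biotypes, gained snoRNA peaks fell from 5.59% to 3.53% with a pseudocount of 8 (all peaks 7.03% to 5.68%). Lost snRNA peaks fell from 6.78% to 4.38% with a mean above 50 (all peaks 5.36% to 3.69%).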

Other observations

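Classes of small RNA that the biotypes above leave out had 8 peaks, 5 of ribozymes and 3 of the sRNA Gm27702 on chromosome 19. The strongest Gm27702 peak (chr19:5822205-5823754) held 1013, 1067 and 1387 in controls and 2201, 2094 and 2062 in Taf4a sKO MuSCs, a log2 change of 0.89 ± 0.12 by limma (adjusted p = 2.2e-06). The ribozyme Gm25694 had both of its peaks called lower, the first with 82, 99 and 89 against 60, 44 and 59, whereas Gm22714 was higher with 51, 52 and 64 against 90, 121 and 76.

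Members with seeds shared by several genes formed 32 groups. Besides let-7 and miR-125, Mir7676-1 and Mir7676-2 stood out after their values were seen, with 4 of 4 peaks lower, beside 13.9% of all peaks. These genes were picked from the 32 groups. Both Mir7676-1 calls were lost in some limma fits with a library left out. The second had an adjusted p of 0.087 without Control replicate 2. Without Taf4a sKO replicate 2 it had an adjusted p of 0.05, with a log2 change of -0.85 in place of -1.37. Mir7676-2 held 286, 288 and 304 against 223, 153 and 205 at its stronger peak.

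The snRNA Gm22614 had a peak (starting at position 96494351 of chromosome 3) in which libraries differed within both genotypes, with 182, 153 and 6 in control replicates 1, 2 and 3 and 0, 1 and 152 in Taf4a sKO replicates 1, 2 and 3. Limma gave it an adjusted p of 0.43. It was chosen after its values were seen, and the cause was not tested.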
